A study of Mus musculus with 18 samples.

Results

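The response of CD4 T cells to stimulation was compared between mice that carry the Gli2R transgene and wild-type (WT) mice. The quantity described is an interaction: the stimulated minus resting difference in Gli2R Tg cells, minus the same difference in WT cells, for each gene. It was read from 12 of the 18 arrays of the series, chosen by their titles, with 3 arrays in each of 4 groups. All mice had the C57BL/6 background and were 9 to 15 weeks old. The WT resting and Gli2R Tg resting groups were CD4 T cells purified from spleen with magnetic beads and taken fresh. The WT stimulated and Gli2R Tg stimulated groups were such cells given 6 h of stimulation by antibodies to CD3, part of the T cell receptor complex, and to its co-stimulatory partner CD28. The other 6 arrays came from Gli2A Tg mice, resting and stimulated in the same way, and entered the estimate of the spread and a side-by-side comparison. The names Gli2R and Gli2A stand for a repressor and an activator form of the transcription factor Gli2. The promoter and the construct of either transgene are not given in the sources used here, nor is whether the 3 arrays of a group came from separate mice. P-values therefore measure only the spread between these samples, part of which may be technical. By the sex-linked transcripts given below, resting WT, stimulated WT and stimulated Gli2R Tg groups each held both sexes. The arrays of each of those groups thus did not all come from the same mouse, while for resting Gli2R Tg cells this stays unknown. The resting cells were fresh, so any effect of the 6 h outside the animal is part of what is called stimulation here.

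In the Hedgehog pathway, secreted ligands (Shh, Ihh and Dhh) bind the receptor Ptch1, which releases Smo from inhibition and lets Gli proteins enter the nucleus as activators. Without ligand, Gli2 and Gli3 can be processed into repressor forms that occupy the same target sites. Antigen receptor stimulation of a CD4 T cell acts through calcium and NFAT, through MAP kinases and AP-1, and through NF-kB, and within hours it induces cytokines, surface receptors, transcription factors and metabolic genes.

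Most measures of quality overlapped between the genotypes. Median intensity of the 12 arrays lay between 58.4 and 76.3, the 3' to 5' ratio of beta-actin between 1.31 and 1.61, and arrays of 1 group correlated across genes at 0.971 to 0.98. The 3' to 5' ratio of Gapdh moved with stimulation and differed between the stimulated genotypes without overlap: it was 0.709 to 0.795 at rest, 2.27 to 2.79 in stimulated WT and 2.05 to 2.2 in stimulated Gli2R Tg arrays, and its part in the results was not tested. Transcripts that define the labelled cell type were present. Cd3e, a chain of the T cell receptor complex, lay between 12.91 and 13.46 on the log2 scale in resting arrays. In stimulated ones it lay between 10.05 and 10.90. Cd4 lay between 11.06 and 11.61 at rest and between 9.57 and 10.37 after stimulation. Neither gene's stimulation effect differed between genotypes beyond the spread (interaction 0.04 ± 0.30 for Cd3e and -0.02 ± 0.33 for Cd4, log2 ± SE). Transcripts of other cells, described below, were present too. The mean of the myeloid list was 10.90 to 11.94 at rest and 6.57 to 7.30 after stimulation, and that of acinar markers reached 11.74 in resting Gli2R Tg arrays. The values of Cd3e and Cd4 thus do not show how pure the cells were. The sexes were unevenly spread. By Xist and Y-linked transcripts, male arrays numbered 2 of 3 among stimulated Gli2R Tg and 0 of 3 among resting Gli2R Tg cells, 1 of 3 among stimulated and 2 of 3 among resting WT cells. The interaction of Xist was -7.22 and that of the Y-linked Eif2s3y 6.55, so sex moves with the interaction. Where a fit with sex as a covariate moved a median of a list described below, or the value of a gene refitted in that way, by over 1.5 times, the value from that fit is given beside it. In these bulk samples, fewer cells of a type and less RNA per cell cannot be told apart.

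Both genotypes answered stimulation with changes in a large part of the transcriptome, and no gene's answer differed between them past the threshold. In WT cells, 3576 of 18193 genes rose (19.7%) and 4008 fell (22%) at an adjusted p under 0.05 (limma, Benjamini-Hochberg). In Gli2R Tg cells, 3604 rose (19.8%) and 4099 fell (22.5%). Of these, 2826 genes rose in both genotypes and 3310 fell in both, 8 changed in opposite directions, and 1440 and 1559 were called in WT alone and in Gli2R Tg alone. A call in one genotype alone does not show a difference, which is tested by the interaction. There, 0 of 18193 genes (0%) passed, with a lowest adjusted p of 0.133. The median SE of an interaction was 0.377 on the log2 scale, and the middle of the distribution, from the 5th to the 95th percentile, ran from -0.86 to 0.88. At an unadjusted p under 0.05 the interaction was above 0 in 756 genes (4.16%) and below 0 in 818 (4.5%), which together are 8.65% of all genes.

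The direction of these unadjusted differences moved with the scaling. With quantile normalization the median interaction of all genes was -0.01 and 48% of the 1574 genes were above 0. With arrays centred on their medians it was -0.12, with 481 genes above and 1236 below 0, or 28% above. With the deposited scaling alone it was 0.04, with 921 above and 679 below, or 57.6% above. The medians of lists below are to be read against the -0.01 of all genes, and the plot of lists shows them relative to it under each scaling. Counts of list members below 0 are to be read against 50.9% of all genes. Those lower or higher at an unadjusted p under 0.05 are to be read against 4.5% and 4.16%. Counts that rose or fell with stimulation are to be read against the shares of all genes given above.

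**Figure D1:**
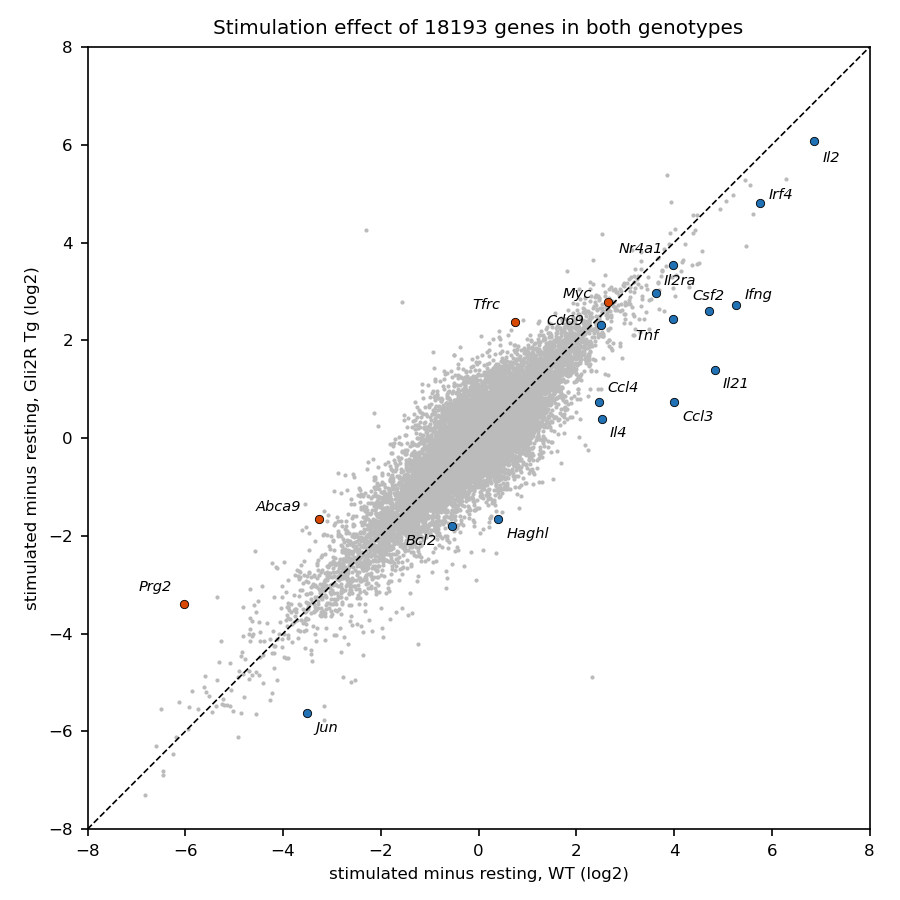
Stimulation effect of 18193 genes, stimulated minus resting on the log2 scale, in WT (x axis) and in Gli2R Tg cells (y axis). Each grey point is a gene, the dashed line marks equal effects, and named genes are blue where the interaction is below 0 and orange where it is above 0. Il2 lies at 6.87 and 6.08 and Ifng at 5.26 and 2.73, both below the line, and no gene's distance from the line passed the adjusted threshold.

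The overall size of the response was compared over genes chosen in arrays that the interaction does not read. Among the 3666 genes that rose with stimulation in Gli2A Tg cells, the median effect was 0.93 in WT and 0.95 in Gli2R Tg cells, and the interaction was above 0 in 51.3% with a median of 0.01. Among the 4146 genes that fell there, the medians were -1.18 and -1.22, and the interaction was above 0 in 46.5% with a median of -0.03. These medians move with the scaling as the median of all genes does: median centring gave -0.15 in both sets, and deposited scaling turned the second to 0.01.

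Several named cytokine and chemokine genes had interactions below 0, and none passed the adjusted threshold. The promoters of 5 of them are shown, since their genes carry the interaction values described next. These are the 200 bases before the annotated start in RefSeq (GRCm38.p6), 5' to 3' on the gene's strand, with capitals marking GGAAA, the core bound by NFAT, or its reverse complement TTTCC.
Il2, chr3:37125955-37126154 (minus strand): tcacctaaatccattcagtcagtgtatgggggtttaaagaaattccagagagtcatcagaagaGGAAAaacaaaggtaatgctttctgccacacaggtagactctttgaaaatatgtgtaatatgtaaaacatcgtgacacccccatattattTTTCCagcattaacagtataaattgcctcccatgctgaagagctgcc
Ifng, chr10:118440846-118441045 (plus strand): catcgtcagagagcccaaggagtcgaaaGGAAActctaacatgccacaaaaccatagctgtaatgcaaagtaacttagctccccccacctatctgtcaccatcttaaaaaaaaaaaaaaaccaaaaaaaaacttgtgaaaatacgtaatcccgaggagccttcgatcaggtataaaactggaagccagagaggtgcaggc
Il21, chr3:37232637-37232836 (minus strand): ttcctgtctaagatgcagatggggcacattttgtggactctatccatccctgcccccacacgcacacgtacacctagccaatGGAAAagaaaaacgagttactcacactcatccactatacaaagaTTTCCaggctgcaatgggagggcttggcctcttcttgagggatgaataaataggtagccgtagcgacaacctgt
Csf2, chr11:54249900-54250099 (minus strand): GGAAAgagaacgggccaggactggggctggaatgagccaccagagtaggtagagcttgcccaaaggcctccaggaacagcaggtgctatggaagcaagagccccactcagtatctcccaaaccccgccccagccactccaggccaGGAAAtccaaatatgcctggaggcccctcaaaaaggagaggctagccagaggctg
Ccl3, chr11:83649379-83649578 (minus strand): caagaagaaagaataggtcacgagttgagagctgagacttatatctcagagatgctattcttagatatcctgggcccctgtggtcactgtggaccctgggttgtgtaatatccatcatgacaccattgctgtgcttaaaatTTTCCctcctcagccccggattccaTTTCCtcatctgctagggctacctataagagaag

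RefSeq entries were found for 8 of the 9 genes searched: Il2, Ifng, Il21, Il4, Il13, Csf2, Tnf and Ccl3. These 8 genes had 9 windows, since Il4 had more than 1. The NFAT core GGAAA was present on either strand in at least 1 window of 8 of the 8 genes. The Il4 window at chr11:53617339-53617538 had 0 matches. Counted by single window rather than by gene, 47.6% of 32851 promoter windows of this length had a match. The AP-1 core TGANTCA was found in 0 of the 8 (5.48% of all windows) and the GLI core GACCACCCA in 0 of the 8 (0.161% of all windows). A match is a description of the letters, and the absence of one says only that these letters are not in this window.

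Il2, the growth factor that activated T cells secrete, read 6.41, 6.44 and 6.51 on the resting WT arrays and 6.24, 6.82 and 6.30 on the resting Gli2R Tg arrays. After stimulation it read 13.28, 13.14 and 13.54 in WT and 12.48, 12.70 and 12.41 in Gli2R Tg cells. The resting groups overlapped, and the 3 stimulated Gli2R Tg arrays all lay below the 3 stimulated WT arrays. Il2 rose 117-fold in WT (log2 6.87 ± 0.22, SE) and 67.5-fold in Gli2R Tg cells (6.08 ± 0.22). The interaction was -0.79 ± 0.31, with a 95% interval from -1.45 to -0.13, an unadjusted p of 0.0223 and an adjusted p of 0.481 in limma. With sex as a covariate it was -0.59, adjusted p = 0.744.

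Ifng, the signature cytokine of Th1 cells, had a mean that was higher at rest and lower after stimulation in Gli2R Tg cells, and neither difference passed the test. Resting arrays read 8.87, 8.27 and 6.98 in WT and 9.72, 9.77 and 8.55 in Gli2R Tg cells, and stimulated arrays 13.22, 13.31 and 13.38 in WT and 12.38, 12.49 and 11.36 in Gli2R Tg cells. The resting groups overlapped at 1 array of each, while the stimulated groups did not overlap. Ifng rose 38.4-fold in WT and 6.61-fold in Gli2R Tg cells, so the effect was 5.81-fold smaller (interaction -2.54 ± 0.67, unadjusted p = 0.00184, adjusted p = 0.286, limma). Tnf, an inflammatory cytokine, followed the same course, with resting values of 7.55, 6.93 and 6.72 in WT and 8.15, 8.51 and 7.75 in Gli2R Tg cells, and stimulated values of 11.04, 11.16 and 10.94 against 10.24, 10.30 and 11.15. Here the resting groups did not overlap and 1 stimulated Gli2R Tg array lay among the WT arrays. Its interaction was -1.54 ± 0.42 (adjusted p = 0.296).

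Csf2, which encodes GM-CSF, read 5.80, 5.72 and 4.77 at rest in WT and 6.89, 6.16 and 6.64 in Gli2R Tg cells, and 9.86, 10.65 and 9.91 against 9.06, 9.37 and 9.07 after stimulation. The resting values lay higher and the stimulated values lower in Gli2R Tg cells, without overlap in either condition. It rose 26.2-fold in WT and 6.07-fold in Gli2R Tg cells (interaction -2.11 ± 0.53, adjusted p = 0.284). Il4, the main type 2 cytokine, read 6.60, 7.09 and 7.06 at rest in WT, 7.26, 8.04 and 7.56 at rest in Gli2R Tg cells, 9.10, 9.17 and 10.04 in stimulated WT and 7.91, 8.81 and 7.33 in stimulated Gli2R Tg cells. It rose 5.73-fold in WT, and the 1.32-fold difference in Gli2R Tg cells did not pass the test (interaction -2.12 ± 0.52, adjusted p = 0.284). Il13, another type 2 cytokine, was similar, with an effect of 2.18 in WT that passed, one of -0.15 in Gli2R Tg cells that did not, and an interaction of -2.34 ± 0.69 (adjusted p = 0.334).

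Ccl3 and Ccl4 encode chemokines that draw in other leukocytes. Ccl3 read 6.05, 4.26 and 4.21 at rest in WT and 6.5, 8.33 and 6.23 in Gli2R Tg cells, then 8.68, 8.90 and 8.92 against 8.0, 7.79 and 7.45 after stimulation. Its effect was 4.0 ± 0.53 in WT, which passed, and 0.73 ± 0.53 in Gli2R Tg cells, which did not, and the interaction was -3.27 ± 0.75 (unadjusted p = 0.000603, adjusted p = 0.256). The resting WT values of 4.26 and 4.21 are dim, under the 25th percentile of mean gene levels (5.37), so the size of these differences is uncertain. Over the alternative settings and arrays left out, the interaction of Ccl3 ran from -4.78 to -2.15. Ccl4 read 7.83, 7.39 and 7.45 and then 9.97, 9.74 and 10.36 in WT, against 8.11, 9.31 and 8.33 and then 9.48, 9.30 and 9.16 in Gli2R Tg cells. Its interaction was -1.74 ± 0.38 (unadjusted p = 0.000349, adjusted p = 0.252). For both chemokines the resting Gli2R Tg arrays lay above all resting WT arrays and the stimulated ones below all stimulated WT arrays. The interactions of Ifng, Tnf, Il21, Csf2, Il4, Il13, Ccl3 and Ccl4 stayed below 0 in every alternative setting and with every array left out in turn.

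**Figure D2:**
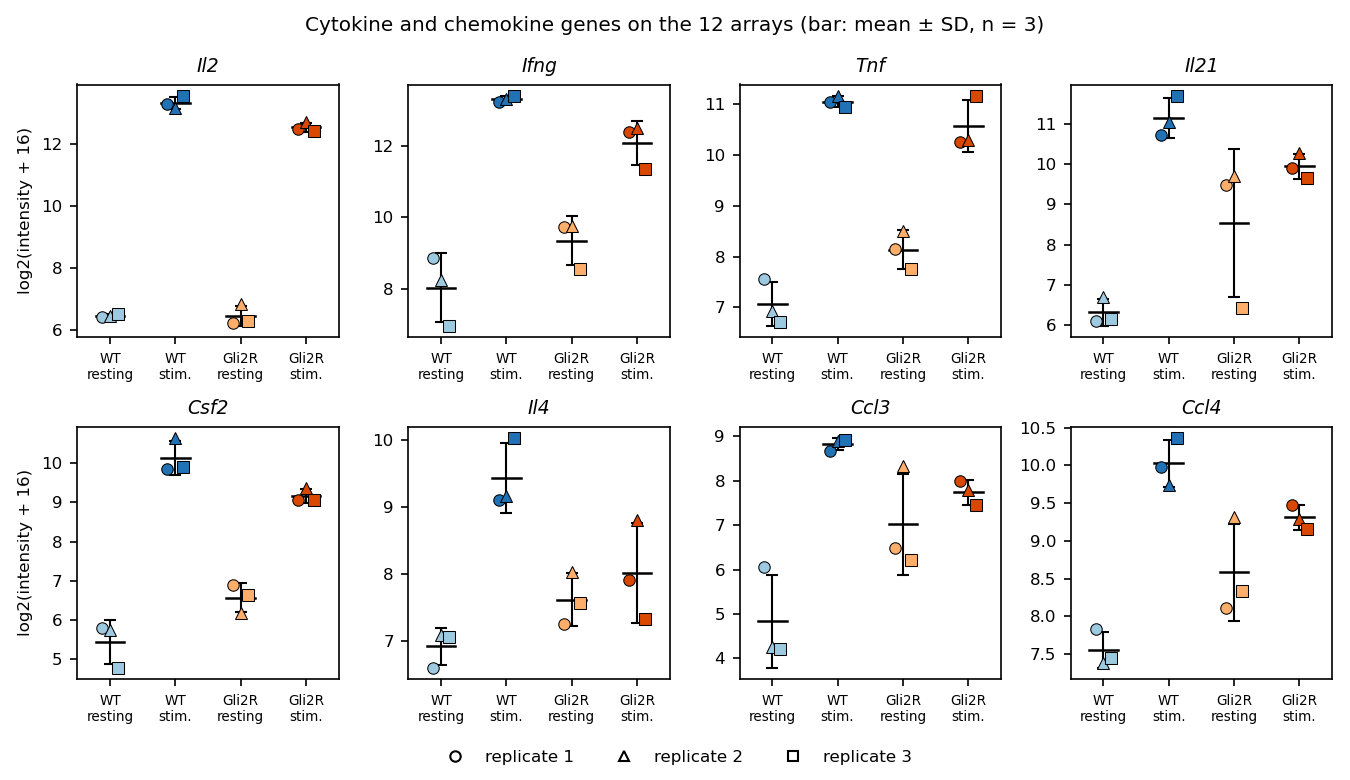
Level of 8 cytokine and chemokine genes on each of the 12 arrays, as log2 of intensity plus 16. Symbols are replicates 1 to 3 of a group and bars show the mean ± SD (n = 3). For Csf2, Ccl3 and Ccl4 the resting Gli2R Tg arrays lie above and the stimulated ones below the WT arrays, and for Il2 only the stimulated groups differ without overlap.

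The lists of helper lineage genes had medians below that of all genes. Of 18 measured Th1 and type 1 cytokine genes, 15 had an interaction below 0, with a median of -0.65 beside -0.01 over all genes, and 9 were lower and 0 higher at an unadjusted p under 0.05. Beside Ccl3, Ifng, Ccl4 and Tnf, these 9 were the receptor chains Il12rb1 (-1.03) and Il18r1 (-0.91), the granzyme Gzmb (-0.94), the Th1 master regulator Tbx21 (-0.81) and the chemokine receptor Cxcr3 (-0.72). Of 16 Th2 and type 2 genes, 13 were below 0 with a median of -0.55, and 6 lower and 0 higher at that level: Il4, Il13, the cytokines Il10 (-2.0 ± 0.61) and Il3 (-1.50), the transcription factor Nfil3 (-2.49 ± 0.69) and the chemokine receptor Ccr4 (-0.84 ± 0.32). Of 12 Th17 and Tfh (follicular helper) genes, 10 were below 0 with a median of -0.70, and again 6 were lower and 0 higher. The shares below 0 compare with 50.9% over all genes. The shares lower at an unadjusted p under 0.05 were 50%, 37.5% and 50% in the same order, beside 4.5% over all genes. Relative to the median of all genes, these 3 medians stayed between -0.70 and -0.54 with median centring and deposited scaling.

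Activation markers rose in both genotypes, and their interactions were mostly below 0. Of 21 measured markers, 15 rose in WT and 14 in Gli2R Tg cells, beside 19.7% and 19.8% of all genes. The interaction was below 0 in 19 (90.5%, beside 50.9% of all genes), with a median of -0.37. At an unadjusted p under 0.05, 7 were lower (33.3%, beside 4.5%) and 1 higher (4.76%, beside 4.16%). Tnfrsf4, the co-stimulatory receptor OX40, read 10.53, 10.74 and 11.19 and then 14.14, 14.26 and 14.51 in WT, against 11.72, 12.11 and 11.03 and then 14.05, 14.00 and 13.51 in Gli2R Tg cells. At rest the groups overlapped, and after stimulation all Gli2R Tg arrays lay below the WT arrays. It rose by 3.48 in WT and by 2.23 in Gli2R Tg cells, with an interaction of -1.25 ± 0.34 (adjusted p = 0.296). The related receptor Tnfrsf18 had -0.77. Other early readouts differed less. Il2ra, the alpha chain of the IL-2 receptor, rose by 3.62 in WT and by 2.96 in Gli2R Tg cells (interaction -0.67 ± 0.32, adjusted p = 0.589, and -0.41 with sex as a covariate). Tnfrsf9, the receptor 4-1BB, had -0.34 ± 0.27 and Cd69, an early surface marker, -0.18 ± 0.46, with a 95% interval from -1.17 to 0.81 for Cd69 and -0.38 with sex as a covariate.

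Tfrc, the transferrin receptor through which dividing cells take up iron, went the other way among the activation markers. It read 12.33, 12.47 and 12.86 at rest in WT and 10.65, 10.53 and 11.52 in Gli2R Tg cells, and 13.20, 13.32 and 13.35 against 13.38, 13.15 and 13.30 after stimulation. The difference thus lay in the resting arrays, where all Gli2R Tg values were lower, and the stimulated groups overlapped. Tfrc rose by 2.38 ± 0.32 in Gli2R Tg cells, while the 0.74 ± 0.32 in WT did not pass (interaction 1.64 ± 0.45, adjusted p = 0.296). Erythroid precursors also hold much Tfrc, and erythroid markers were lower on the same resting Gli2R Tg arrays; their part in this value was not tested beyond the covariate fit, in which Tfrc stayed above 0.

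Among 25 activation-induced transcription factors, 19 (76%, beside 50.9% of all genes) had an interaction below 0, with a median of -0.34. At an unadjusted p under 0.05, 3 were lower (12%, beside 4.5% of all genes) and 0 higher. Those 3 were Irf4, a factor that effector T cells need, Bhlhe40, which promotes cytokine production, and the AP-1 member Fosb. Irf4 rose by 5.76 ± 0.26 in WT and by 4.81 ± 0.26 in Gli2R Tg cells (interaction -0.95 ± 0.36, adjusted p = 0.477), Bhlhe40 by 3.79 and by 2.59 (-1.19 ± 0.46), and Fosb had -1.02 ± 0.46. Nr4a1, a direct readout of receptor signalling, rose by 3.98 and by 3.54 (-0.44 ± 0.44, adjusted p = 0.803, and -0.70 with sex as a covariate). Myc, a driver of cell growth, rose by 2.66 and by 2.78, with an interaction of 0.13 ± 0.31 that was below 0 with median centring (-0.09), with sex as a covariate (-0.02) and without resting Gli2R Tg replicate 3 (-0.02). The AP-1 subunit Jun fell with stimulation in both genotypes, by 3.51 in WT and by 5.62 in Gli2R Tg cells, from resting values that ran from 10.41 to 13.46 in WT and from 12.70 to 13.97 in Gli2R Tg cells. Its interaction of -2.12 ± 1.0 (adjusted p = 0.584) and that of Junb, -0.98 ± 0.69, thus carried a wide spread among resting arrays.

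Of 15 measured NF-kB subunits, inhibitors and targets, 11 (73.3%, beside 50.9% of all genes) were below 0. The median was -0.12 (-0.29 with sex as a covariate, and -0.24 to -0.0025 with single arrays left out). At an unadjusted p under 0.05, 2 were lower (13.3%, beside 4.5% of all genes) and 0 higher. The 2 lower ones are inhibitors that NF-kB itself induces. Nfkbia, which encodes IkB alpha, read 14.34, 14.33 and 14.04 at rest in WT and 14.48, 14.41 and 14.40 in Gli2R Tg cells, and 14.81, 14.85 and 14.91 against 14.55, 14.28 and 14.41 after stimulation, where the groups did not overlap. It rose by 0.62 ± 0.13 in WT, and the -0.02 ± 0.13 in Gli2R Tg cells did not pass (interaction -0.64 ± 0.18, adjusted p = 0.296). Nfkbid had -0.90 ± 0.33, the deubiquitinating enzyme Tnfaip3 -0.89 ± 0.55 and the subunit Relb -0.50 ± 0.26. The T cell receptor signalling components had a median of 0.02, with 13 of 27 below 0. The sign of that median turned with sex as a covariate (-0.18, 19 of 27 below 0), and 16 of 27 lay below the median of all genes with median centring or deposited scaling. Malt1, the protease of the complex that links the receptor to NF-kB, had the lowest unadjusted p among them (-1.14 ± 0.45, unadjusted p = 0.0225), and the receptor's zeta chain Cd247 had -0.55 ± 0.27 on its brightest probe set, with its 4 probe sets running from -0.89 to 0.50.

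The count of called genes moved most with 1 array. Leaving out any other single array of the 12 gave 0 to 2 called genes, some of them higher. Without resting Gli2R Tg replicate 3, the interaction gave 12 called genes of 18193 (0.066%), and all 12 were lower. They were Il21, Tox2, Ascl2, Icos, Pdcd1, Ctla4, Lag3, Il10, Bhlhe40, Fam20a, Ncmap and Haghl, and they were singled out after their values were seen. Where replicate 3 stood apart from the other resting Gli2R Tg arrays, leaving it out shrinks the SE by itself. The smaller adjusted p-values of this fit are thus no independent evidence. Il21 is the cytokine by which Tfh cells help B cells, Ascl2 and Tox2 are transcription factors of the Tfh programme, Icos is its co-stimulatory receptor, and Pdcd1 (PD-1), Ctla4 and Lag3 encode inhibitory receptors.

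Il21 read 6.09, 6.70 and 6.16 at rest in WT, but 9.49, 9.71 and 6.41 in Gli2R Tg cells, the third of which was replicate 3. After stimulation it read 10.72, 11.03 and 11.69 in WT and 9.90, 10.27 and 9.65 in Gli2R Tg cells, without overlap. It rose 28.4-fold in WT, and the 2.64-fold difference in Gli2R Tg cells did not pass the test. The interaction was -3.43 ± 0.93 (adjusted p = 0.296) with all arrays and -4.49 ± 0.56 (adjusted p = 0.00939) without replicate 3. Its other probe set gave -1.17 with all arrays.

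Tox2 showed the same split, with 8.80, 9.10 and 8.67 at rest in WT and 11.51, 11.66 and 8.46 in Gli2R Tg cells, while stimulated arrays read 10.05, 10.04 and 9.81 against 9.77, 9.53 and 9.50. Its interaction went from -2.06 ± 0.80 (adjusted p = 0.477) to -3.11 ± 0.21 (adjusted p = 1.76e-05). Ascl2 read 4.92, 4.97 and 5.69 against 8.26, 8.54 and 5.83 at rest, and its interaction went from -2.21 ± 0.77 to -3.06 (adjusted p = 0.0429). Replicates 1 and 2 of resting Gli2R Tg cells thus stood well above resting WT cells in these genes, and replicate 3 stood at their level. Pdcd1 read 8.47, 8.87 and 8.80 against 10.10, 10.53 and 8.85 at rest, and Ctla4 9.36, 9.67 and 8.98 against 10.80, 10.81 and 9.14. Their interactions went from -1.13 to -1.62 and from -1.45 to -2.02 (adjusted p = 0.0429 for both). Lag3 went from -1.0 to -2.05, Icos from -0.96 to -1.48, Il10 from -2.0 to -2.63 and Bhlhe40 from -1.19 to -1.73. The list medians moved too: relative to all genes, activation markers went from -0.36 to -0.59 without replicate 3, activation-induced transcription factors from -0.33 to -0.60, Th2 genes from -0.54 to -0.90, regulatory T cell genes from -0.45 to -0.72 and NF-kB genes from -0.11 to -0.23. In the other direction cell cycle genes went from 0.44 to 0.71, and CD8 T and NK markers came nearer to 0, from -0.37 to -0.13, as did acinar markers, from -2.26 to -0.89. Resting WT replicate 3 lay to the same side in some of these lists. Resting WT means were 9.64, 9.55 and 9.13 for activation-induced transcription factors and 10.61, 10.58 and 10.21 for NF-kB genes. They were 11.31, 11.24 and 11.63 for cell cycle genes, but close for activation markers (9.61, 9.58 and 9.54). Where such a shift is shared, leaving out the Gli2R Tg array alone moves the median by itself.

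In Haghl and Fam20a all 3 resting Gli2R Tg arrays lay above the WT arrays (for Fam20a 6.77, 7.13 and 5.57 against 4.69, 4.51 and 4.88). This also held for Ascl2, where replicate 3 lay only just above them. Cxcr5, the receptor that leads Tfh cells into B cell follicles, had an interaction of -1.16 ± 0.48 and was not called in either fit, with resting values of 8.89, 9.74 and 9.47 against 10.59, 10.70 and 9.18. Pancreatic acinar markers also split the resting Gli2R Tg arrays, with mean log2 levels of 10.89, 5.70 and 11.74, where replicate 2 was the low one. With an acinar covariate the interaction of Il21 was -3.95 (adjusted p = 0.287), and with sex as a covariate -3.29 (adjusted p = 0.587).

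**Figure D3:**
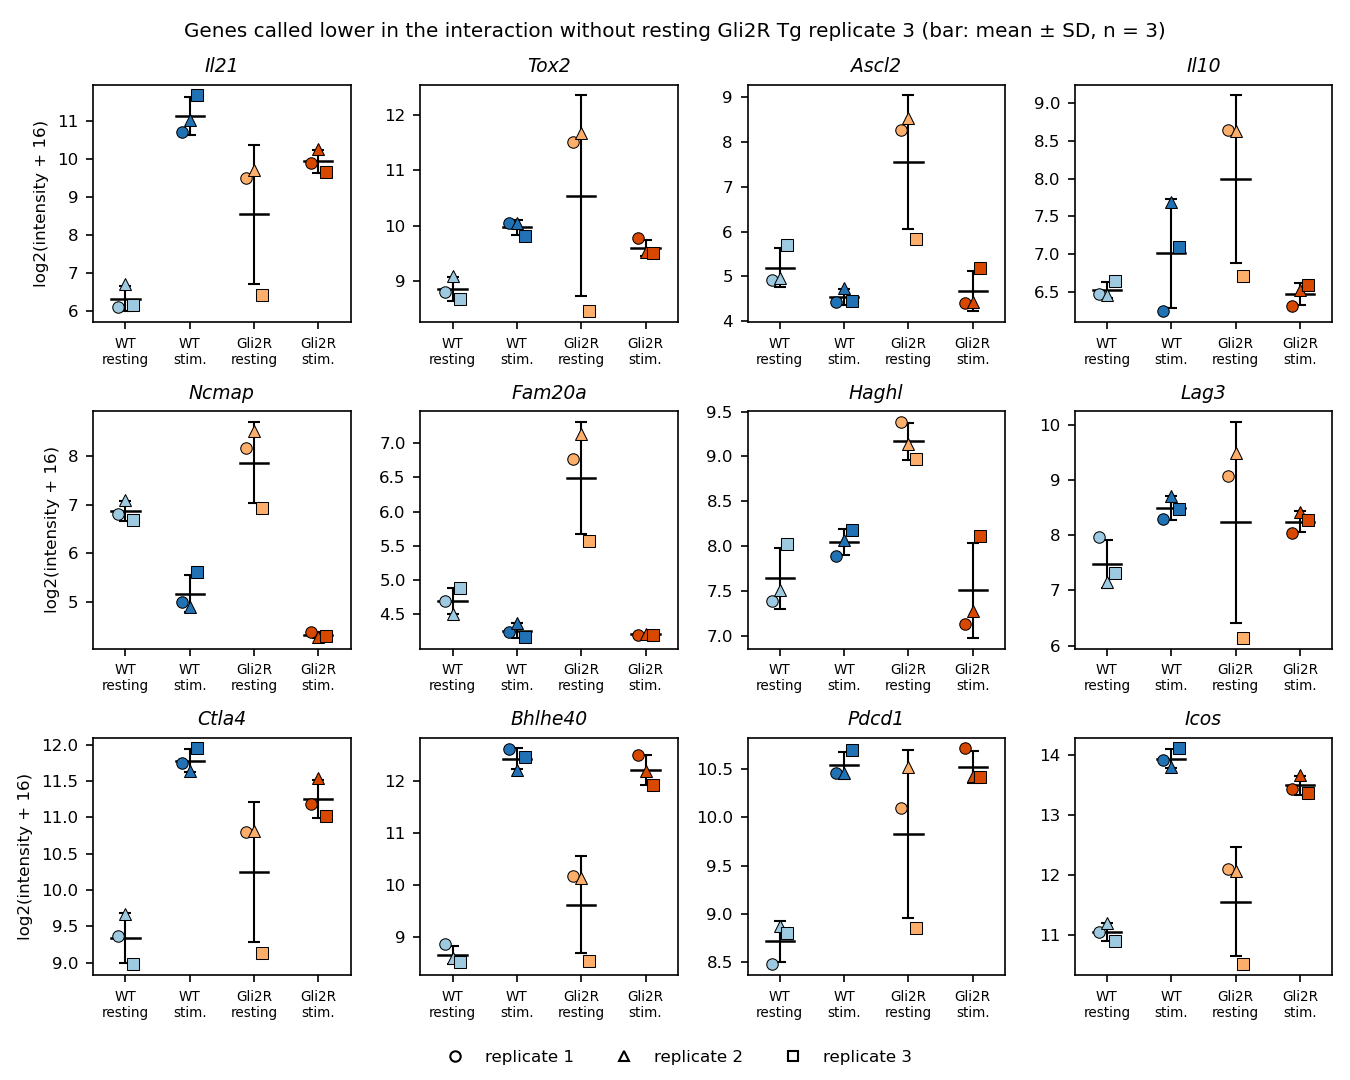
Level of the 12 genes called without resting Gli2R Tg replicate 3, on each of the 12 arrays, as log2 of intensity plus 16. Circles, triangles and squares are replicates 1, 2 and 3, and bars show the mean ± SD (n = 3). In Il21, Tox2, Ascl2 and Pdcd1 the resting Gli2R Tg square lies near the WT values while the circle and triangle lie above them.

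The genes with the 10 lowest p-values in each direction are given as values only, without clone names. Among those below 0, Haghl, a member of the glyoxalase family, came first. It read 7.38, 7.51 and 8.02 at rest and 7.89, 8.07 and 8.17 after stimulation in WT, and 9.39, 9.14 and 8.97 and then 7.13, 7.28 and 8.11 in Gli2R Tg cells. The 0.40 ± 0.23 in WT did not pass the test, and Haghl fell by 1.66 in Gli2R Tg cells, for an interaction of -2.07 ± 0.32 (unadjusted p = 1.33e-05, adjusted p = 0.133). Of its 4 probe sets 3 gave a negative value and the dimmest gave 0.24. Ctsw, which encodes the protease cathepsin W of cytotoxic lymphocytes, read 9.99, 10.42 and 10.52 and then 9.84, 9.44 and 10.19 in WT, and 11.27, 11.55 and 11.52 and then 9.48, 9.21 and 8.73 in Gli2R Tg cells (interaction -1.82 ± 0.31, adjusted p = 0.133). In both genes the resting Gli2R Tg arrays lay above all resting WT arrays. Resting Gli2A Tg arrays were also above resting WT arrays in both, at 9.50, 9.61 and 9.55 for Haghl and 10.85, 11.10 and 10.68 for Ctsw.

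The other 8 below 0 were the intracellular channel Tmem38b (-1.21), Serpini1 (-1.31), a serine protease inhibitor, Tdpoz1 (-1.39), the ubiquitin ligase Rnf43 (-1.63), which dampens Wnt signals, the intraflagellar transport gene Ift46 (-0.82), Fam20a (-1.85), the DNA repair gene Shld2 (-1.2) and the glutathione transferase Gstt1 (-1.98). Their adjusted p-values lay between 0.16 and 0.237. Probe sets disagreed in sign for Tmem38b (up to 1.02) and Serpini1 (up to 0.20). Gstt1 was lower in stimulated cells only, with 6.75, 6.13 and 6.54 and then 6.59, 6.33 and 6.59 in WT, against 6.23, 6.62 and 6.70 and then 4.46, 4.76 and 4.51 in Gli2R Tg cells.

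Above 0, Abca9, a lipid transporter of the ABC family, came first with 8.07, 7.77 and 7.78 and then 4.61, 4.71 and 4.49 in WT, and 6.62, 6.80 and 6.62 and then 5.10, 4.54 and 5.41 in Gli2R Tg cells. It fell by 3.27 in WT and by 1.67 in Gli2R Tg cells (interaction 1.61 ± 0.27, unadjusted p = 2.47e-05, adjusted p = 0.133). The resting groups did not overlap and the stimulated groups did, and its other, dimmer probe set gave -0.36. Cavin4 (1.71), Fsd2 (1.40), the transporter Slc16a9 (1.51), the apolipoprotein Apoc1 (2.20), the glycine cleavage protein Gcsh (0.82), Cend1 (1.74), the lipase Liph (1.95), Kctd8 (1.94) and Hpdl (1.30) followed, with adjusted p-values of 0.133 to 0.256. Gcsh was a bright gene with small spread: it rose by 2.34 ± 0.12 in WT (mean 11.41 to 13.76) and by 3.16 ± 0.12 in Gli2R Tg cells (mean 10.92 to 14.08). Fsd2 fell by 3.10 in WT and by 1.71 in Gli2R Tg cells, and Slc16a9 by 4.14 and by 2.63. Cavin4, Liph and Kctd8 stayed under 6.2 on every array, in the dim range where log2 of intensity plus 16 understates a change.

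The 8 genes that stimulation changed in opposite directions were few and mostly dim. Liph, Kng1 (the precursor of kinins), the collagen Col15a1, Upk3bl, Ppp1cb and 1700080O16Rik fell in WT and rose in Gli2R Tg cells, while Kif5c (a kinesin) and Mat1a (a methionine adenosyltransferase) rose in WT and fell in Gli2R Tg cells. Ppp1cb, a catalytic subunit of protein phosphatase 1, was the brightest on every array: 13.00, 13.16 and 13.25 to 12.95, 12.77 and 12.69 in WT, and 13.02, 12.92 and 13.09 to 13.31, 13.49 and 13.20 in Gli2R Tg cells. Its effects were -0.34 and 0.33, and the interaction was 0.66 ± 0.18 (adjusted p = 0.286). The interactions of the 8 ranged from -1.42 for Mat1a to 2.27 for Col15a1, and the other probe set of Kng1 gave -0.13.

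Where an interaction lies can be read from the genotype difference within each condition, which uses the same arrays and gives no independent evidence. At rest 0 of 18193 genes (0%) were called between Gli2R Tg and WT cells, and after stimulation 8 (0.044%) were called, each at an adjusted p of 0.0487. Higher in stimulated Gli2R Tg cells were Cavin4 (1.32), Ankrd66 (1.33) and Bbs4 (1.12), a part of the complex that carries proteins to cilia. Lower were Gstt1 (-1.93), Cnr2, the cannabinoid receptor of immune cells (-1.30), Tdpoz1 (-1.23), 4930431F12Rik (-1.09) and 4931429P17Rik (-0.90). Cavin4, Ankrd66, Tdpoz1 and both Rik genes were dim, with mean levels of 4.43 to 4.87. These lie under the 25th percentile of mean gene levels (5.37), so the size of their differences is uncertain. Cnr2 read 8.40, 8.57 and 8.57 at rest in WT and 8.08, 8.23 and 8.46 in Gli2R Tg cells, and 5.63, 5.71 and 5.68 against 4.34, 4.49 and 4.31 after stimulation. It fell with stimulation in both genotypes, with an interaction of -1.04 ± 0.30 (adjusted p = 0.311). These calls lie at the edge of the threshold: there were 0 with median centring, with deposited scaling and with sex as a covariate. Among the 818 genes lower in the interaction at an unadjusted p under 0.05, the resting difference was the larger part in 431 and the stimulated difference in 387, and in 755 the genotype difference had opposite signs in both conditions compared. Among the 756 higher genes these counts were 375, 381 and 652. The interaction is the stimulated minus the resting genotype difference, so choosing genes by it favours opposite signs. These counts describe that choice and are no separate result.

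Genes of effector and memory cells fell with stimulation in both genotypes, with interactions mostly below 0. Of 18 measured, 14 fell in WT and 17 in Gli2R Tg cells, beside 22% and 22.5% of all genes. The interaction was below 0 in 16 (88.9%, beside 50.9% of all genes), with a median of -0.49. At an unadjusted p under 0.05, 6 were lower (33.3%, beside 4.5%) and 0 higher. Ccl5, a chemokine that memory cells store, read 12.43, 12.26 and 12.59 and then 10.93, 10.99 and 11.19 in WT, and 12.87, 13.37 and 13.30 and then 10.73, 10.88 and 10.05 in Gli2R Tg cells. It fell by 1.39 and by 2.63 (interaction -1.24 ± 0.33, adjusted p = 0.288), with resting values higher and stimulated values lower in Gli2R Tg cells and no overlap in either condition. The chemokine receptor Cxcr6 had -1.78 ± 0.47, the integrin chain Itgb1 -0.95 ± 0.37 (1 of its 6 probe sets was above 0) and Il18r1 -0.91 ± 0.35. Adhesion molecules and chemokine receptors, which share Cxcr6 and Itgb1 with that list, had 20 of 21 below 0 (median -0.39). At rest, 18 of the 18 effector genes were higher in Gli2R Tg than in WT cells, with a median of 0.26, and after stimulation 4 were. Over all genes, 52.1% were higher at rest and 49.1% after stimulation.

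Of the markers of CD8 T and NK cells, 9 of 14 had an interaction below 0 (64.3%, beside 50.9% of all genes, median -0.38), among them the granzyme Gzmk (-1.40 ± 0.51), the receptor Klrk1 (-1.40 ± 0.43) and the granule gene Nkg7 (-0.77 ± 0.26). The other 5 lay above 0, up to 0.49. The mean level of these markers was 8.16 to 8.23 in resting WT, 8.39 to 8.57 in resting Gli2R Tg, 7.69 to 8.23 in stimulated WT and 7.88 to 7.91 in stimulated Gli2R Tg arrays, so the resting groups did not overlap. Their part in the values of Ctsw, Ccl5 and Ifng was not tested. Genes of regulatory T cells had 7 of 12 below 0, or 58.3% against 50.9% of all genes (median -0.46, and -0.73 to -0.16 with single arrays left out, the latter without resting Gli2R Tg replicate 2), with Il2rb, a shared chain of the IL-2 and IL-15 receptors, at -0.86 ± 0.28 and the decoy receptor Il1r2 at -1.16 ± 0.67. Genes of naive and quiescent cells fell in 16 of 21 in both genotypes and had 12 of 21 below 0 in the interaction (median -0.17, and -0.11 with sex as a covariate). Klf4 among them had -1.18 ± 0.62 and 0.42 on its other probe set, and the anti-proliferative gene Btg1 0.63 ± 0.19. Signalling feedback genes had 15 of 20 below 0 (median -0.51, and -0.74 to -0.27 with single arrays left out, the latter without resting WT replicate 3), and Spred1, an inhibitor of the Ras pathway, went the other way with 0.84 ± 0.19 (6 of its 8 probe sets above 0).

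**Figure D4:**
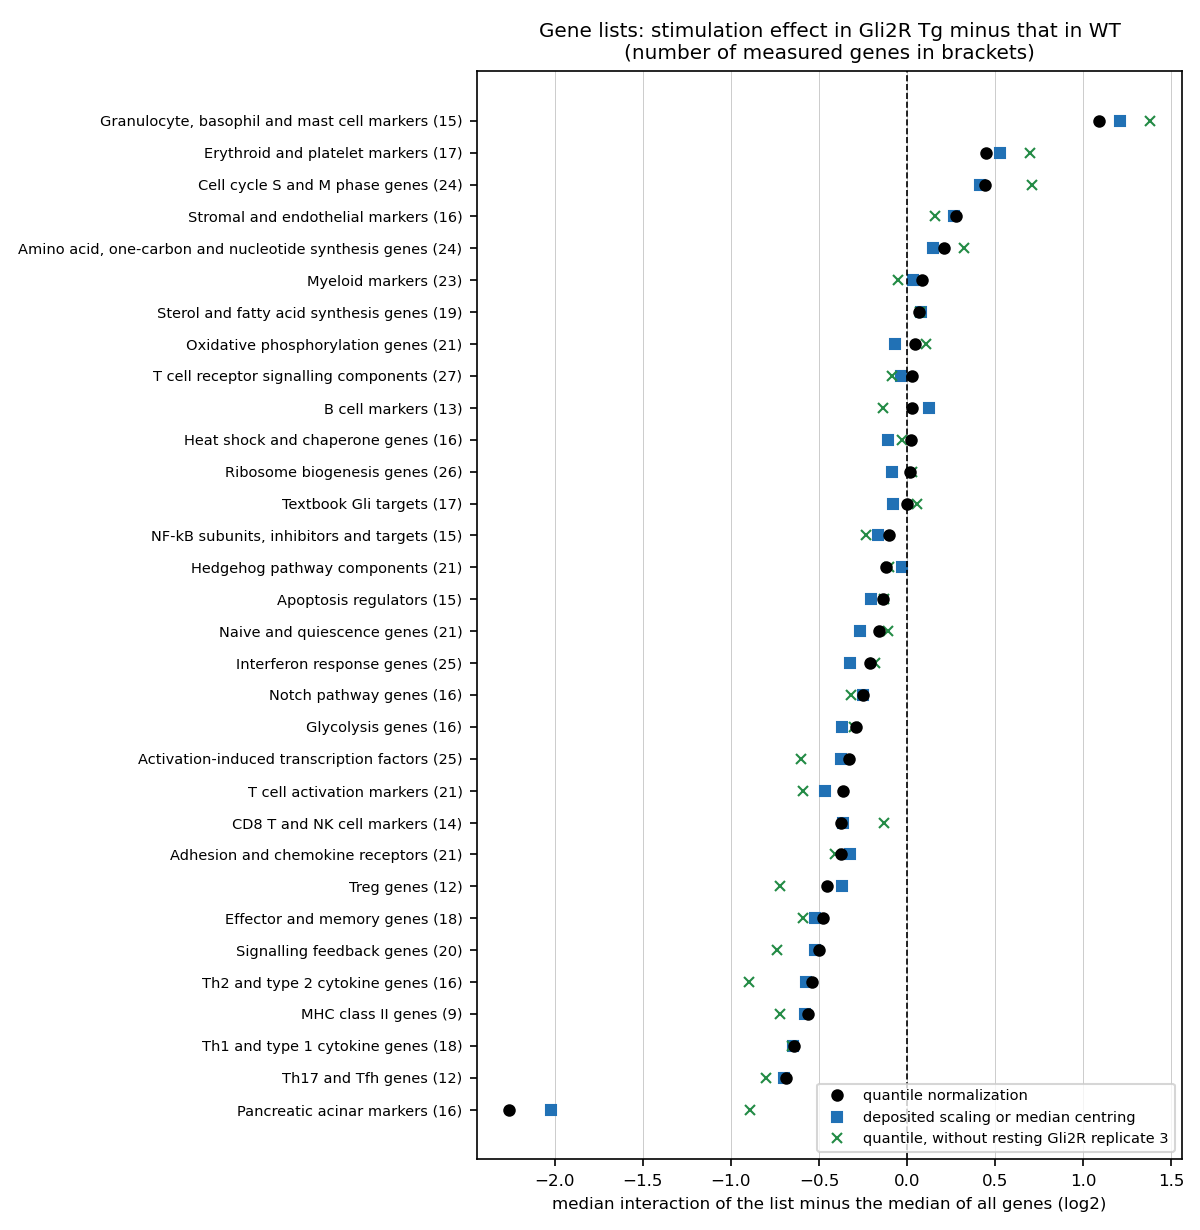
Median interaction of each gene list minus the median of all genes, on the log2 scale, under quantile normalization (circles), deposited scaling or median centring (squares, which coincide on this scale) and without resting Gli2R Tg replicate 3 (crosses). Cytokine and effector lists lie to the left and the cell cycle and granulocyte lists to the right of 0, while ribosome biogenesis stays within 0.1 of it.

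Most lists of metabolic and growth genes had medians near that of all genes. Ribosome biogenesis genes rose in 26 of 26 in both genotypes, by medians of 2.0 and 2.08, and 13 of 26 interactions were below 0 (median 0.01, and 0.03 with sex as a covariate). Sterol and fatty acid synthesis genes had 8 of 19 below 0 (median 0.06, and -0.13 with sex as a covariate). Oxidative phosphorylation genes had 16 of 21 above 0 with a median of 0.04, but 14 of 21 lay below the median of all genes with median centring or deposited scaling, and the ATP synthase subunit Atp5o had 0.67 ± 0.19 (adjusted p = 0.296). Amino acid, one-carbon and nucleotide synthesis genes had 18 of 24 above 0 (median 0.20), including the polyamine enzyme Odc1 (0.67 ± 0.32) and thymidylate synthase Tyms (1.38 ± 0.48 on its brightest probe set, 3 of 4 above 0). Glycolysis genes rose in 14 of 16 in WT and 13 of 16 in Gli2R Tg cells and had 14 of 16 interactions below 0 (median -0.30). Egln3, a prolyl hydroxylase induced with the glycolytic genes, read 7.47, 6.95 and 7.09 and then 12.65, 12.40 and 12.85 in WT, and 8.0, 7.67 and 6.88 and then 11.62, 11.50 and 11.24 in Gli2R Tg cells. Its stimulated groups did not overlap, and the interaction was -1.53 ± 0.46 (adjusted p = 0.337). The phosphofructokinase Pfkp had -0.79 ± 0.29, with 1 of 3 probe sets at 0.82, and the glucose transporter Slc2a3 -0.78 ± 0.30.

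Cell cycle genes of S and M phase had 23 of 24 interactions above 0 with a median of 0.44 (0.79 with sex as a covariate, and 0.72 without stimulated WT replicate 3). They fell with stimulation in 22 of 24 in WT and 19 in Gli2R Tg cells. At rest 0 of 24 were higher in Gli2R Tg than in WT cells, beside 52.1% of all genes (median difference -0.99). Rrm2, a subunit of ribonucleotide reductase, read 12.55, 12.55 and 13.04 at rest in WT and 11.26, 10.70 and 11.49 in Gli2R Tg cells, and 8.64, 8.34 and 9.13 against 7.91, 8.23 and 8.26 after stimulation (interaction 0.99 ± 0.52, adjusted p = 0.63). The genotypes did not overlap in either condition, with the larger gap at rest. Cdc20, an activator of the anaphase-promoting complex, had 0.98 ± 0.42 and the mitotic kinase Aurka 0.92 ± 0.41. Erythroid and platelet markers were lower on the same resting arrays, with list means of 9.77 to 10.26 in WT and 8.56 to 9.29 in Gli2R Tg cells. Their part in the cell cycle values was not tested beyond the erythroid covariate fit, in which the list median stayed above 0.

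Stress and survival genes were mixed. The heat shock list had 8 of 16 below 0 (median 0.01). The inducible chaperones Hspa1a (-1.77 ± 0.78) and Hspa1b (-1.31 ± 0.62) fell with stimulation in both genotypes, and Hsph1 rose by 1.45 in WT and by 2.36 in Gli2R Tg cells (interaction 0.91 ± 0.35, adjusted p = 0.477, and 0.55 with sex as a covariate). Interferon response genes rose in 16 of 25 in WT and 17 in Gli2R Tg cells, and 18 of 25 interactions were below 0 (median -0.22, and -0.34 with sex as a covariate). Rsad2, the antiviral protein viperin, went against the list with 1.2 ± 0.43, from resting values of 11.87, 11.17 and 11.93 in WT and 10.36, 9.77 and 9.80 in Gli2R Tg cells. Apoptosis regulators had 8 of 15 below 0 (median -0.15). Bcl2, which protects T cells from death and is also a textbook Gli target, read 10.82, 10.85 and 10.43 and then 9.77, 10.30 and 10.38 in WT, and 11.43, 11.41 and 11.29 and then 9.70, 9.54 and 9.46 in Gli2R Tg cells. Its groups did not overlap in either condition, and it fell by 0.55 in WT and by 1.81 in Gli2R Tg cells (interaction -1.26 ± 0.28, unadjusted p = 0.000492, adjusted p = 0.256). Of its 5 probe sets 4 were below 0 and 1 gave 0.12. The cell cycle inhibitor Cdkn1a had -1.09 ± 0.40.

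Hedgehog pathway genes lay near the background. Of 21 measured components 14 were below 0 (median -0.13, and 0.01 with deposited scaling), with 1 higher and 1 lower at an unadjusted p under 0.05. The lower one was Cdon, a co-receptor for the ligands (-0.62 ± 0.22), and the higher one was the ligand gene Dhh. Dhh read 5.26, 4.77 and 4.46 and then 4.51, 5.11 and 5.02 in WT, and 4.21, 4.35 and 4.30 and then 6.84, 5.45 and 6.84 in Gli2R Tg cells, an interaction of 2.04 ± 0.53 (adjusted p = 0.286), or 1.28 with sex as a covariate. It rose in Gli2R Tg cells, and the 0.05 in WT did not pass. Its other probe set gave 0.15, and its level is dim. Among ligands Shh had -0.79 ± 0.68 and Ihh -0.13. The receptor Ptch1 read 10.24, 10.44 and 10.44 and then 10.24, 9.95 and 10.24 in WT, and 10.60, 10.26 and 10.34 and then 10.08, 10.23 and 9.96 in Gli2R Tg cells, where the genotypes overlapped in each condition. Its interaction was -0.08 ± 0.22, with a 95% interval from -0.55 to 0.39 and 0.12 with sex as a covariate, and its other probe sets gave -0.60 and 0.05. Smo, the signal transducer, had 0.14 ± 0.37 and Sufu, which holds Gli proteins in the cytoplasm, -0.28 ± 0.19.

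Gli2, the gene from which the transgene is named, had a pair of dim probe sets with interactions of -0.48 ± 0.57 and 0.21, and values of 4.23 to 5.55 on the 12 arrays for the brighter one. Which part of Gli2 the transgene holds is not given, so these probe sets check nothing about the labels. Gli1, itself a target of Gli activators, had -0.17 ± 0.44 (-0.41 with sex as a covariate), with genotypes that overlapped in each condition and values from 5.47 to 6.85. Gli3 had 0.87 ± 0.64, and the cytoplasmic regulators Kif7 and Stk36 had -0.86 ± 0.67 (-0.17 with sex as a covariate) and -1.13 ± 0.66. The textbook Gli targets had 9 of 17 below 0 (median -0.01, and 0.12 with sex as a covariate), with Bcl2 as the 1 gene at an unadjusted p under 0.05. Sfrp1, a secreted inhibitor of Wnt among them, had -1.57 ± 1.08, with 5 probe sets from -1.57 to 0.53. Notch pathway genes had 11 of 16 below 0 (median -0.26), with Notch1 at -0.69 ± 0.32 and its ligand Dll4 at 0.87 ± 0.35.

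Markers of other cells in the preparations moved with the interaction in part. Myeloid markers fell with stimulation in 22 of 23 in both genotypes, and their list mean went from 11.20 to 11.94 at rest to 6.92 to 7.30 in WT, and from 10.90 to 11.27 to 6.57 to 7.07 in Gli2R Tg arrays. Their interactions were balanced, with 11 of 23 below 0 (median 0.08, and 0.01 with sex as a covariate). MHC class II genes had 8 of 9 below 0 (median -0.57) and B cell markers 6 of 13 (median 0.02, and 0.18 with sex as a covariate). Granulocyte, basophil and mast cell markers had 11 of 15 above 0 (median 1.08, and 0.54 with sex as a covariate), with list means of 7.95 to 9.22 in resting WT, 7.22 to 7.53 in resting Gli2R Tg, 6.47 to 6.88 in stimulated WT and 6.05 to 6.65 in stimulated Gli2R Tg arrays. Prg2, the major basic protein of eosinophils, read 12.90, 11.16 and 11.28 at rest in WT and 9.46, 8.78 and 9.34 in Gli2R Tg cells, and 5.62 to 5.99 against 5.07 to 6.20 after stimulation. It fell by 6.02 and by 3.39 (interaction 2.62 ± 0.61, unadjusted p = 0.000648, adjusted p = 0.256), and S100a8, a neutrophil gene, had 2.10 ± 0.83. Il4, which basophils also make, is the 1 marker of that list that was lower at an unadjusted p under 0.05.

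Erythroid and platelet markers had 13 of 17 above 0 (median 0.44, 0.95 with sex as a covariate, and 0.24 to 0.84 with single arrays left out, the lowest without stimulated WT replicate 2 and the highest without stimulated WT replicate 3), with Alas2, the first enzyme of haem synthesis in red cell precursors, at 1.72 ± 0.83. Pancreatic acinar markers had 16 of 16 below 0 (median -2.27), with a wide spread among the resting arrays. Their list means were 8.15, 7.63 and 6.38 in resting WT, 10.89, 5.70 and 11.74 in resting Gli2R Tg and 5.37 to 6.05 in stimulated arrays of both genotypes. Cpb1, a pancreatic carboxypeptidase, read 12.03, 5.78 and 12.89 in resting Gli2R Tg arrays and had an interaction of -2.62 ± 1.93. Fits with the myeloid, erythroid or acinar list mean as a covariate, like the fit with sex, gave 0 called genes in the interaction. The part of these cells in the other values was not tested beyond these fits.

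**Figure D5:**
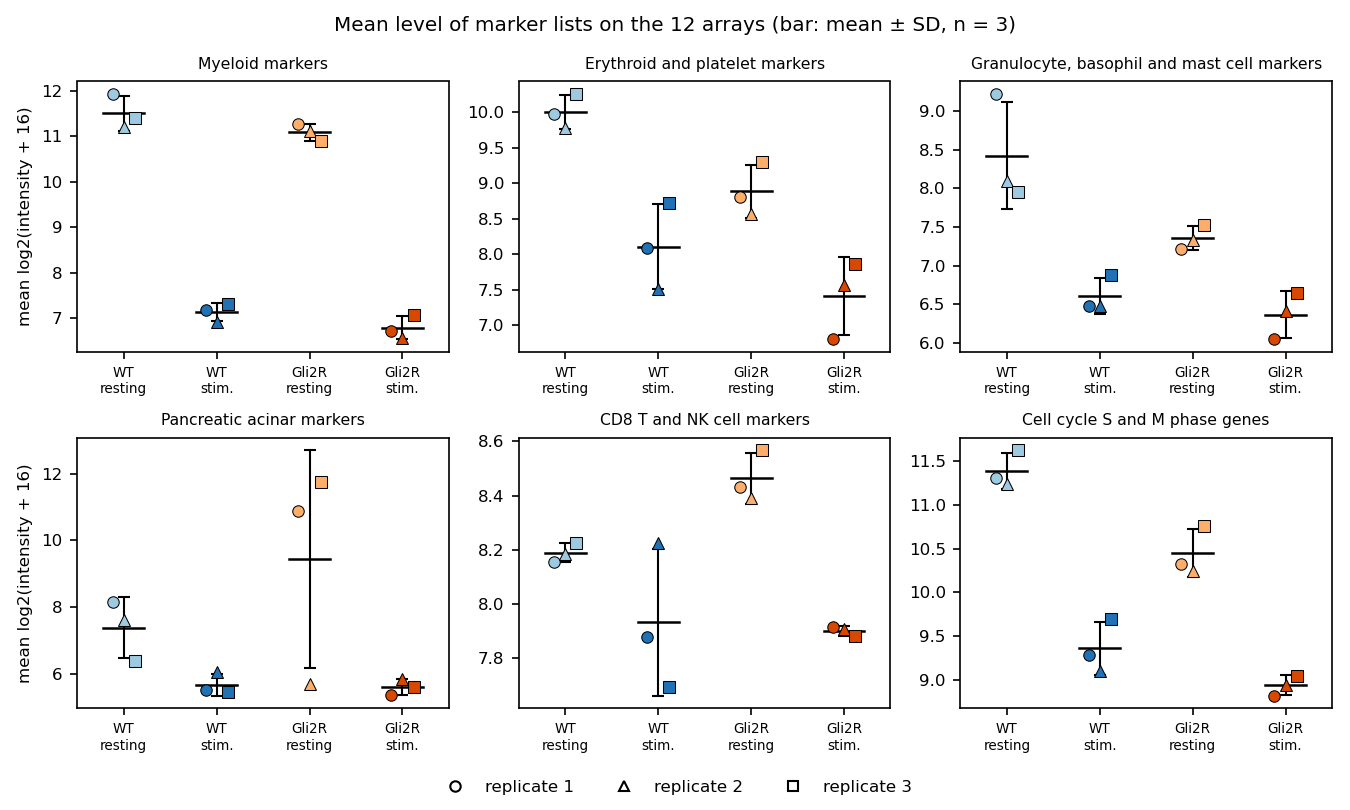
Mean level of 6 lists on each of the 12 arrays, as log2 of intensity plus 16. Symbols are replicates 1 to 3 and bars show the mean ± SD over arrays (n = 3). Resting Gli2R Tg arrays lie below resting WT arrays for erythroid, granulocyte and cell cycle genes, and the acinar list splits the resting Gli2R Tg arrays at 10.89, 5.70 and 11.74.

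The same Gli2R Tg arrays were set against the Gli2A Tg response, which gave 20 called genes of 18193 (0.11%) where WT gave 0, with 14 higher and 6 lower (9 and 9 with median centring). Some Gli2A Tg arrays stood apart: stimulated replicate 2 had a beta-actin 3' to 5' ratio of 3, and without it 6 genes were called. Without stimulated Gli2A Tg replicate 1 there were 9, without resting Gli2A Tg replicate 1 there were 34, and without resting Gli2A Tg replicate 3, whose position on the second principal component was 55.4, there were 14. The comparisons share arrays, so their values stand side by side. Il4 rose by 3.80 in Gli2A Tg, by 2.52 in WT and had 0.40 in Gli2R Tg cells, and Csf2 rose by 5.67, by 4.71 and by 2.60. For both, the Gli2R minus Gli2A difference passed (-3.40, adjusted p = 0.019, and -3.07, adjusted p = 0.0397), while the Gli2R minus WT difference did not (-2.12 and -2.11). Ifng had -3.40 against Gli2A (adjusted p = 0.0793) and -2.54 against WT. Abca9 fell by 3.72, by 3.27 and by 1.67 in the same order of groups, with 2.05 against Gli2A (adjusted p = 0.00707) and 1.61 against WT. Rsad2 fell by 2.48 in Gli2A Tg cells, had 0.15 in WT and rose by 1.35 in Gli2R Tg cells. Lists differed in this respect. Against Gli2A, the median difference was -0.003 for Th1 and 0.04 for effector and memory genes (-0.65 and -0.49 against WT). It was -0.59 for Th2 genes, -0.22 for Th17 and Tfh genes and -0.51 for activation markers (-0.55, -0.70 and -0.37 against WT).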

How the data were processed

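RNA of 18 samples was measured on Affymetrix mouse genome arrays, and 12 arrays enter the comparison. The deposited values are intensity per probe set on a linear scale. The package affy is named per the submitters' processing notes, version not given, and in the deposited values the mean of each array, trimmed by 2% at each end, was 500; how probes were summarised is not given, and the raw image files were not used here. From these, log2(intensity + 16) was taken and quantile normalized over 18 arrays. Of 45101 probe sets, 34945 had 1 gene symbol, 932 several, 9160 none and 64 were controls; the probe set with the highest mean stood for each of 18193 genes, with no filter on low values. limma 3.58.1 (R 4.3.3) was fitted to 6 group means, with contrasts, empirical Bayes moderation and Benjamini-Hochberg adjustment over all genes, calling an adjusted p under 0.05. The fit was tested on simulated data.

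Members and the 33 gene lists (571 of 628 genes measured) were chosen with earlier results of these data known. Named were the 10 lowest p-values in each direction without clone names, up to 4 genes a list with the largest absolute interaction, a preset group of Gli, cytokine and activation genes, and genes called in opposite directions; others were named after their values were seen. Groups share replicate numbers, but deviations of same-numbered arrays correlated at -0.0305 to 0.104 over 12 pairs, so samples were not treated as paired. Such small correlations over all genes do not show whether the numbers mark a shared batch. Among resting arrays, replicate 3 had the lowest mean of signalling feedback genes in WT (9.41), Gli2R Tg (9.78) and Gli2A Tg cells (9.12). Alternatives varied the scaling, pseudocount, filter, probe set rule, moderation, covariates, a replicate block and single arrays. Arrays carry no read depth, and their number limits the precision.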

Additional observations from a re-analysis of the deposited data

Results flagged for a closer look

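The stimulation effect in Gli2R Tg cells differed from that in Gli2A Tg cells in 20 genes by the interaction test in limma (adjusted p under 0.05), and each is given as a log2 difference, Gli2R minus Gli2A. Of these, 6 were lower: the chaperones Hspa1b (-5.29) and Hspa1a (-4.83), the cytokines Il4 (-3.40) and Csf2 (-3.07), Kis2 (-2.87) and Ctf1 (-1.84), a cytokine of the IL-6 family. The other 14 were higher. They include the interferon-induced genes Rsad2 (3.83), Ifit1 (2.34), Ube2l6 (2.23) and Slfn8 (1.5), the mitochondrial iron importer Slc25a37 (3.21), the lipid genes Apoc1 (2.51) and Abca9 (2.05), and the transporter Abcg3 (1.89). The remaining ones were Cdr2 (2.65), Sdc3 (1.97), Pmepa1 (1.95), Prr29 (1.76), the tubulin Tubb2a (1.36) and Myof (1.35).

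The WT effects lay between the others for some of these genes and outside them for others. Hspa1b fell by 2.75 in WT and by 4.06 in Gli2R Tg cells, while its 1.23 in Gli2A Tg cells was of the opposite sign. Ifit1 had 1.88 in WT, 1.52 in Gli2R Tg and -0.81 in Gli2A Tg cells. No outlier test was run, but arrays were left out in turn, and the 20 genes became 6 to 34. With sex as a covariate there were 10.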

How the results depend on the processing

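The interaction between Gli2R Tg and WT cells gave 0 called genes under most settings. It gave 1 over genes above the median level, 2 with a pseudocount of 64, 7 with a trended, robust moderation and 6 over all probe sets, and 0 to 12 with single arrays left out, where the 12 came without resting Gli2R Tg replicate 3. With a replicate block, whose numbers are not known to mark pairs or batches, it gave 0 called genes and 1683 at an unadjusted p under 0.05. The stimulation effect in WT (7584 genes) became 13749 over all probe sets, 15 with the myeloid covariate, which nearly follows stimulation itself, and 4372 with the erythroid covariate (6868 to 7663 with arrays left out). In Gli2R Tg cells (7703) it became 13877 and 9 (7020 to 7707). The resting difference (0) became 6 with median centring, 1 with deposited scaling, 48 above the median level, 2 and 16 with pseudocounts of 1 and 64, 46 with trended moderation, 212 with array weights, 7 over all probe sets, 28 with the replicate block, and 1 with the myeloid and 1 with the acinar covariate (0 to 34 with arrays left out: 34 without resting Gli2R Tg replicate 3, 14 without resting WT replicate 3). The stimulated difference (8) became 0 with median centring, deposited scaling, the above-median filter, a pseudocount of 64, the replicate block, sex or the acinar covariate, 4 with a pseudocount of 1 and with the 12 arrays alone, 16 with trended moderation, 38 over all probe sets, 2 with the myeloid and 1 with the erythroid covariate (0 to 14 with arrays left out).

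The comparison of Gli2R with Gli2A (20) became 128 above the median level, 78 with a pseudocount of 64, 101 with trended moderation, 34 with array weights, 35 over all probe sets, 10 with sex and 11 with the erythroid covariate (6 to 34 with arrays left out: 6 without stimulated Gli2R Tg replicate 1 and also without stimulated Gli2A Tg replicate 2, 9 without stimulated Gli2A Tg replicate 1, 10 without resting Gli2R Tg replicate 2, 34 without resting Gli2A Tg replicate 1). The median interaction of genes that rose in Gli2A Tg cells (0.0114) became -0.145 with median centring (-0.00457 to 0.0193 with arrays left out), and that of genes that fell (-0.0308) became -0.149, and 0.0085 with deposited scaling (-0.0542 to -0.0216). Signs turned for Gli1 (-0.435 to 0.0881 with arrays left out: 0.0471 without resting WT replicate 1, 0.0463 without resting Gli2R Tg replicate 3, 0.0881 without stimulated Gli2R Tg replicate 2), Ptch1 (0.12 with sex, -0.179 to 0.0173 with arrays left out, 0.0173 without resting Gli2R Tg replicate 1), Cd69 (0.00814 with the erythroid covariate, -0.536 to 0.0473 with arrays left out, 0.0445 without resting WT replicate 3, 0.0473 without resting Gli2R Tg replicate 1) and Myc (-0.0882 with median centring, -0.0209 with sex, -0.0246 to 0.257 with arrays left out, the lowest without resting Gli2R Tg replicate 3). Apart from smaller sets of genes or arrays, the cause was not tested. The list medians and the Gli2A comparison under these settings were added after seeing the data. With 3 arrays a group and a median SE of 0.377, small interactions could not be told from 0.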
